A study of Homo sapiens with 4 samples.

Results

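The unfolded protein response and the folding and disposal machinery of the endoplasmic reticulum (ER) are followed here through 47 genes in a T cell leukaemia line after 24 hours without glucose. The genes were chosen by name from what is known of them, and with earlier results of these data known. They are 7 stress sensors and transcription factors, 11 chaperones and cofactors, and 11 disulfide isomerases and oxidases. A further 13 are genes of ER-associated degradation (ERAD), and 5 are genes of the translocon. All 47 were found among the 60609 gene identifiers of the table. New secretory and membrane proteins enter the ER through the translocon, fold with the help of chaperones and disulfide isomerases, and are returned to the cytosol by ERAD for destruction when they fail. When unfolded proteins build up, the sensors IRE1, ATF6 and PERK start the unfolded protein response, in which ATF6 and spliced XBP1 raise transcription of chaperone, oxidase and ERAD genes. Glucose feeds N-linked glycosylation as well as energy metabolism, and several ER chaperones were first found as glucose-regulated proteins.

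The libraries came from CCRF-CEM/HA-AMPKa2 cells, a derivative of the human T cell acute lymphoblastic leukaemia line CCRF-CEM whose name gives an HA-tagged alpha 2 subunit of the energy sensor AMPK. No glucose cells (2 libraries, ONG_9 and ONG_10) spent 24 hours in medium without glucose, and Ctrl cells (2 libraries, CTRL_7 and CTRL_8) were untreated cells in control medium. Both groups carry the same derivative, grown in RPMI with serum, so the construct does not differ between them, and the comparison rests on 1 cell line. The study asked how this metabolic stress reprograms gene expression in leukaemia cells. No label states that the 2 libraries of a group are separate cultures. The p-values below may therefore reflect technical spread alone.

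Total RNA was sequenced to 19035535 and 20081266 reads on genes in ONG_9 and ONG_10, and to 96698709 and 24513840 in CTRL_7 and CTRL_8. Values are counts divided by a size factor per library (normalized counts), in which 1 read is worth 0.343 in CTRL_7 and 1.34 to 1.52 in the other 3 libraries. Of 20 T lineage markers 17 were found by symbol, and 16 of them reached 50 normalized counts in a library. The summed level of the 17 was 97595 to 98470 in the No glucose libraries and 98626 to 100604 in the Ctrl libraries. Single markers differed, with 3 of the 17 called higher without glucose, 4 lower and 10 not called. Of the other marker lists, 2 of 8 B cell genes (CD79A and CD79B), 0 of 8 myeloid, 1 of 6 erythroid and 3 of 8 adherent cell genes reached 50, and 3 of the myeloid genes were at 0 in all libraries. Summed B cell markers were at 526 to 540.2 in No glucose and 895 to 909.6 in Ctrl, and summed adherent cell markers, mostly VIM, at 19619 to 20754 in No glucose and 15642 to 16066 in Ctrl. Their part in the results was not tested. In such bulk samples fewer cells of a kind and less RNA per cell cannot be told apart. Of the 47 genes 25 share exon bases with another annotated gene, and 4 have pseudogenes named after them, none with a mean above 58.2. The counting strand is not given in the sources used here, so overlapping genes may share reads. By share of exon bases the overlap is largest for DERL3, 77.0% of it with SMARCB1 on the other strand (mean of 1027), and for TXNDC5, 60.6% of it with the read-through gene BLOC1S5-TXNDC5, which is listed at 0. Shorter overlaps with more abundant genes include that of SYVN1, 7.24% of it with FAU on the same strand (mean of 7399). CREB3 shares 3.21% with TLN1 on the other strand (mean of 15330). PDIA5 shares 12.2% with SEC22A on the same strand, at means of 335 for PDIA5 and 492 for SEC22A. DERL1, DERL2, SIL1 and TXNDC11 also overlap more abundant genes on the other strand.

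Promoters are shown because a sequence through which the unfolded protein response reaches some of these genes is known. The ER stress element (ERSE) was described in the promoters of ER chaperones such as HSPA5 and binds ATF6 together with the CCAAT-binding factor NF-Y, and ERSE-II is a compact form of it. RefSeq promoter windows (GRCh38.p14, 250 bases before to 50 after the annotated start) were at hand for 44 of the 47 genes, all but PDIA3, DERL1 and DERL3. Both strands were searched for CCAAT and CCACG with 9 bases between (ERSE), for ATTGG and CCACG with 1 base between (ERSE-II), and for the UPR element TGACGTGG. Only exact matches were counted, in the first listed window of each gene symbol, so near matches are not marked. The ERSE and ERSE-II elements found are given 5′ to 3′ on the strand that carries them, with the motif's fixed letters in capitals.
XBP1, ERSE: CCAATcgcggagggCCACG
HSPA5, ERSE: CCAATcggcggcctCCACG
HSP90B1, first ERSE: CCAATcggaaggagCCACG
HSP90B1, second ERSE: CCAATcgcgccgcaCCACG
CALR, ERSE: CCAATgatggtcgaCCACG
CANX, ERSE: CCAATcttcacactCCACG
CRELD2, ERSE: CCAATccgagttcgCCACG
ERO1B, ERSE: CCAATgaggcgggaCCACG
HYOU1, ERSE-II (found at 2 positions): ATTGGaCCACG
SDF2L1, ERSE-II: ATTGGtCCACG
HERPUD1, ERSE-II: ATTGGgCCACG

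An ERSE stood in 7 of the 44 promoters (15.9%), against 22 of all 27305 promoter windows of the same length (0.0806%). ERSE-II stood in 3 of the 44 (6.82%), against 15 of all windows (0.0549%). The UPR element was found in 4 (9.09%), namely HYOU1, TXNDC11, UBE2J1 and SEC62, against 217 of all windows (0.795%). In HYOU1 it overlaps the first ERSE-II. The bare half-site CCACG was common, at 31 of 44 (70.5%) against 10348 of all windows (37.9%), and so was CCAAT, at 29 (65.9%) against 9747 (35.7%). The element was first defined on some of these same promoters, so its share here is a description and no independent result. A match is a run of letters and does not show that a factor binds there. Of the 10 genes with an ERSE or ERSE-II, 3 were higher without glucose (XBP1, HSPA5 and ERO1B), 6 were lower (HYOU1, SDF2L1, CALR, CANX, CRELD2 and HERPUD1) and 1 was not called (HSP90B1). Their log2 changes ran between -1.02 and 0.93 with a median of -0.36. Without CTRL_7, XBP1, HYOU1, CALR, CRELD2 and HERPUD1 missed the threshold (adjusted p 0.062 to 0.16), and without CTRL_8 XBP1 and CRELD2 did (0.27 and 0.065). Among the 34 promoters with no exact match to either, 9 genes were higher, 13 lower and 12 not called, with a median of -0.10. Of 10656 protein-coding genes with a mean of at least 50 normalized counts, 18.9% were higher and 47.2% lower. Their median log2 change was -0.20. No test was made of the 10 genes against either set.

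**Figure D1:**
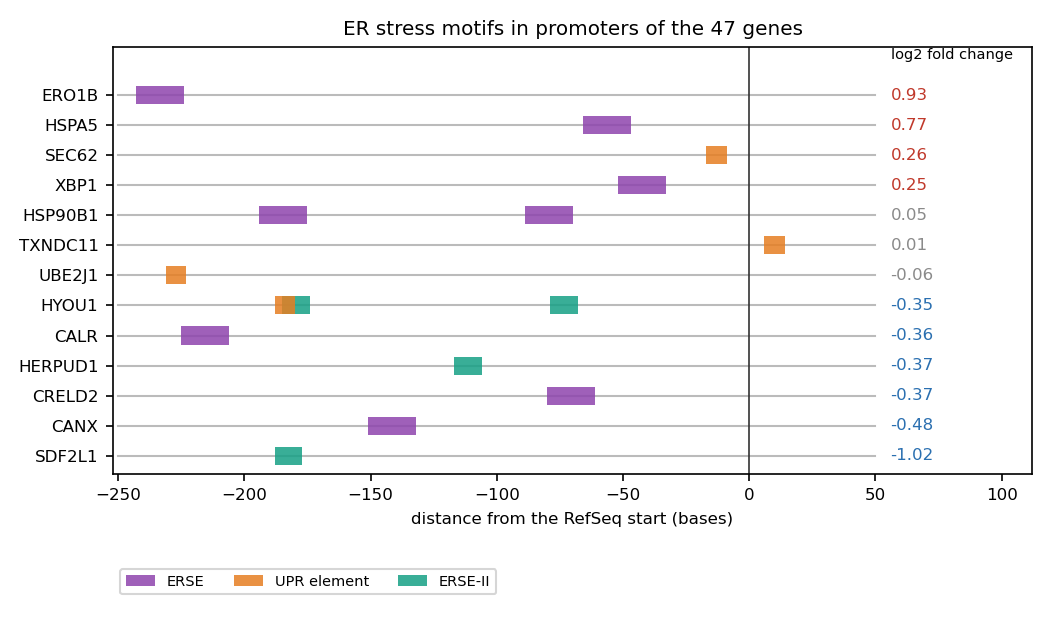
Position of each ERSE, ERSE-II and UPR element in the 13 promoters that hold one, as distance in bases from the RefSeq start, with genes ordered by their log2 fold change, No glucose over Ctrl (printed at the right; red, higher; blue, lower; grey, not called). Genes with an ERSE stand at both ends of the order, ERO1B at 0.93 and CANX at -0.48, and SDF2L1, with an ERSE-II, is last at -1.02.

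Whole windows are given for 4 genes that carry such an element, 2 of them higher and 2 lower without glucose, to show where it lies; its fixed letters are in capitals, on whichever strand it reads. HSPA5 and XBP1, both higher without glucose, carry an ERSE at -66 to -48 and at -52 to -34 bases from the start. SDF2L1 and HERPUD1, both lower, carry an ERSE-II at -188 to -178, on the opposite strand, and at -117 to -107. Each is written along the strand of its gene.
HSPA5, chr9:125241294-125241593, minus strand: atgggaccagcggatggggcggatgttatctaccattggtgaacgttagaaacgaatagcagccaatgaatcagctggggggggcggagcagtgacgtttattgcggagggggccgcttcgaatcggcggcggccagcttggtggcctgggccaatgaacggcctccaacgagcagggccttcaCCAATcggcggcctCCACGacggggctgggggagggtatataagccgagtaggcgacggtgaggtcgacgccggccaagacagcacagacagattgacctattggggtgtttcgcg
XBP1, chr22:28800520-28800819, minus strand: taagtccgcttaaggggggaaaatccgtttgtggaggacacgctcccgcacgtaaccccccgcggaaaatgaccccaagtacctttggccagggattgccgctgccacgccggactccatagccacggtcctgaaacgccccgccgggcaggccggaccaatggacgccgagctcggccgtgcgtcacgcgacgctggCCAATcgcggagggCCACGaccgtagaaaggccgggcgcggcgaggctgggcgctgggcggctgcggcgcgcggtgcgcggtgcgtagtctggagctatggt
SDF2L1, chr22:21642052-21642351, plus strand: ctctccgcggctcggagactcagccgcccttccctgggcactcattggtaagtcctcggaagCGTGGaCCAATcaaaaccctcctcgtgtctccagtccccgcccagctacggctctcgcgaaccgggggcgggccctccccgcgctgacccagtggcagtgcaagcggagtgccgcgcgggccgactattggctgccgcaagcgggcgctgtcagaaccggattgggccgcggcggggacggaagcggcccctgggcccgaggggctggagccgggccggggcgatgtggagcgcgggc
HERPUD1, chr16:56931892-56932191, plus strand: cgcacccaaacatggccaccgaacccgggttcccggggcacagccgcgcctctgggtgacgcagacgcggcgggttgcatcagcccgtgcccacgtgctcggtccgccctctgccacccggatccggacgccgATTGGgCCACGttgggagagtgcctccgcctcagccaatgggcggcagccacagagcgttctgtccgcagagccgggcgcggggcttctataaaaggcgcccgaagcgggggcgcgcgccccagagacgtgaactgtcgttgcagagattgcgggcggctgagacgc

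The 47 genes did not move together. Without glucose 12 were higher (25.5%), 20 were lower (42.6%) and 15 were not called (31.9%), by limma on log2(normalized count + 1) with Benjamini-Hochberg adjustment over 27486 genes and a threshold of 0.05. All 47 reached the minimum for testing, a mean of 1 normalized count, and only TXNDC5 and DERL3 had a mean under 50. The background was broad. Of all genes tested, 14.4% were higher and 20.7% lower, and of 10656 protein-coding genes with a mean of at least 50, 18.9% were higher and 47.2% lower. The 47 thus stand at 25.5% beside 18.9% for higher calls and at 42.6% beside 47.2% for lower calls, and no test was made of the list. The groups did not overlap in 40 of the 47 (85.1%), near the 85.3% of expressed coding genes and above the 66.8% of all genes tested.

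Most changes were small: 34 of the 47 lay within 0.5 of 0 on the log2 scale, and 3 of the called genes, ERN1, SDF2L1 and PDIA5, passed a change of 1. The median log2 change was -0.13 for the 47, -0.20 for expressed coding genes and 0.04 for all genes tested. Together the 47 took 0.622% ± 0.0096 of reads in the No glucose libraries and 0.592% ± 0.0020 in the Ctrl libraries (SD, n = 2 each). By role, the sensors took 0.0354% ± 0.00020 of reads without glucose and 0.0267% ± 0.00021 in Ctrl, and ERAD genes 0.141% ± 0.0026 without glucose and 0.114% ± 0.00019 in Ctrl. The translocon took 0.0574% ± 0.00039 without glucose and 0.0503% ± 0.00036 in Ctrl. Chaperones took 0.274% ± 0.0064 without glucose and 0.278% ± 0.0028 in Ctrl, and disulfide isomerases 0.115% ± 0.0011 without glucose and 0.124% ± 0.000010 in Ctrl. So the share of reads was higher for sensors, ERAD genes and translocon and lower for disulfide isomerases, while that of chaperones differed by less than the spread of the No glucose libraries. Single genes carried much of this. ERAD genes without EDEM1 took 0.102% ± 0.0020 without glucose and 0.0957% ± 0.00029 in Ctrl. Sensors without ERN1 took 0.0287% ± 0.000061 without glucose and 0.0252% ± 0.00021 in Ctrl. Shares scale each library to its total reads. On that scale the median log2 change was 0.23 for all genes tested and 0.01 for expressed coding genes. With the deposited size factors 2 of 5 translocon genes rose and 2 fell (median -0.12), and 3 of 13 ERAD genes rose and 4 fell (median -0.06).

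These counts depended on the scaling. When libraries were scaled to their total reads in place of the deposited size factors, the log2 changes of all genes shifted up by a median of 0.20. With that scaling 19 of the 47 were higher and 13 lower, and their median was 0.08 where that of expressed coding genes was 0.01 and that of all genes 0.23. The whole table then held 6106 higher and 3818 lower calls, against 3948 and 5695 with the deposited size factors. Under either scaling the median of the 47 lay above that of expressed coding genes and below that of all genes. Fewer of the 47 were called when either Ctrl library was left out. The within-group spread then came from the No glucose pair alone. The median log2 change of the 47 was -0.11 without CTRL_7 and -0.15 without CTRL_8. The call was the same under the main settings and all 14 others for 14 genes. These were ERN1, HSPA5, ERO1B and EDEM1, which were higher, and SDF2L1, CANX, PDIA4, PDIA5, PDIA6, ERP29, EDEM2, EDEM3, UBE2J2 and SEC61B, which were lower.

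**Figure D2:**
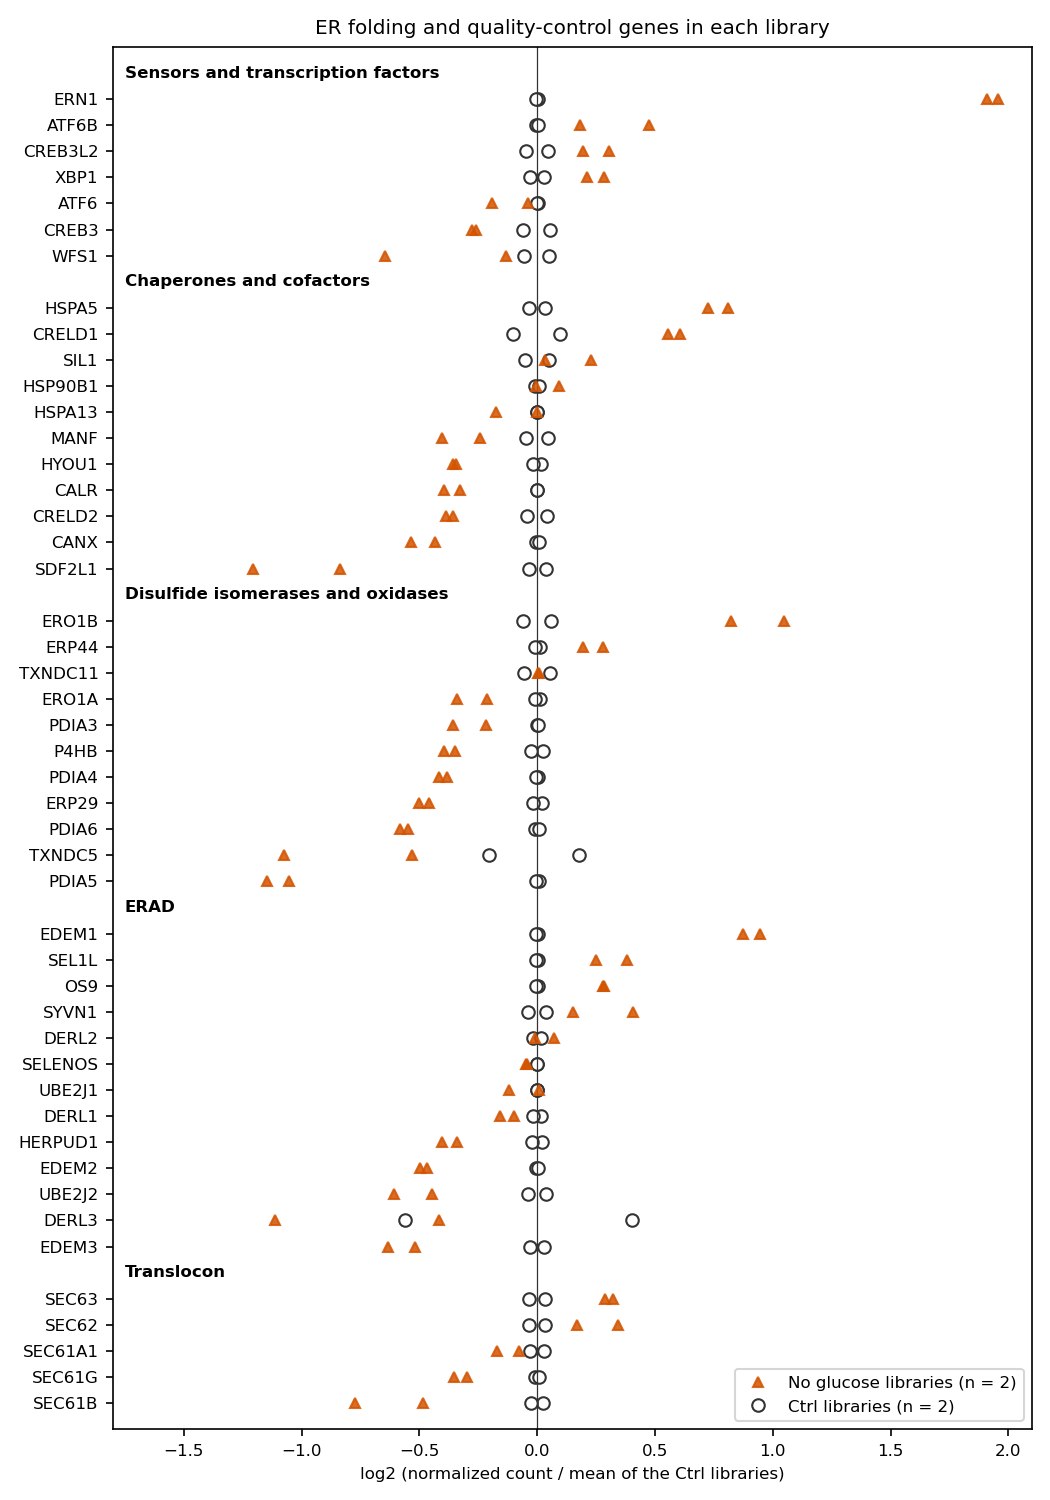
Each of the 47 genes in each library, as log2 of the normalized count over the mean of the Ctrl libraries, grouped by role and ordered by change within a role; triangles are the 2 No glucose libraries and open circles the 2 Ctrl libraries. The triangles of ERN1 lie near 1.9, those of ERO1B, EDEM1 and HSPA5 between 0.7 and 1.1, and those of SDF2L1 and PDIA5 between -1.3 and -0.8, while most others lie within 0.5 of the circles.

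Among the sensors and transcription factors 3 of 7 genes rose, 1 fell and 3 were not called. Of expressed coding genes 18.9% were higher and 47.2% lower. The median log2 change of the sensors was 0.25 (0.46 with library totals). ERN1, which encodes IRE1 alpha, the kinase and endonuclease that splices XBP1 mRNA (ENSG00000178607, chr17:64039142-64130819, minus strand of hg38), moved most of all 47. It had 1879 and 1938 normalized counts in the No glucose libraries, against 501 and 498 in the Ctrl libraries. The groups lay far apart, a 3.82-fold difference, with a log2 change of 1.93 ± 0.07 (SE) and an adjusted p of 1.7e-08. XBP1, the transcription factor made by that splicing (ENSG00000100219), had 1883 and 1793 normalized counts without glucose, against 1579 and 1518 in Ctrl. The groups did not overlap, and it rose by 0.25 ± 0.07 (adjusted p = 0.012). Counts per gene do not separate spliced from unspliced XBP1 mRNA.

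ATF6, the membrane-bound factor released by cleavage in the Golgi, had 4342 and 3905 normalized counts in No glucose cells and 4464 and 4453 in Ctrl cells. Both No glucose values were lower, but the change of -0.11 ± 0.06 was not called (adjusted p = 0.19). ATF6B, its paralog, had 535 and 655 without glucose, against 470.2 and 474 in Ctrl, and rose by 0.33 ± 0.10 (adjusted p = 0.030). CREB3, another ER-anchored factor, fell to 759.6 and 769 without glucose, against 956 and 883 in Ctrl, a log2 change of -0.27 ± 0.08 (adjusted p = 0.020). So the members of this family of cleaved factors moved in different directions. CREB3L2, a further member of the family, had 431 and 464 in No glucose cells and 389 and 364 in Ctrl cells (0.25 ± 0.09, adjusted p = 0.063). WFS1, wolframin, an ER membrane protein linked to calcium and to ATF6 turnover, had 337 and 479.9 without glucose, against 545 and 507 in Ctrl (-0.39 ± 0.14, adjusted p = 0.055). The No glucose libraries of WFS1 lay far apart from each other.

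Apart from ERN1, calls among sensors were lost when either Ctrl library was left out, though the log2 changes kept their sign. XBP1 was at 0.28 without CTRL_7 and 0.22 without CTRL_8. In the same order ATF6B was at 0.32 and 0.33, and CREB3 at -0.21 and -0.32. Without CTRL_7 and without CTRL_8 in turn XBP1, ATF6B and CREB3 all missed the threshold (adjusted p 0.15 to 0.31 and 0.11 to 0.27), and without ONG_10 ATF6B and CREB3 did (0.098 and 0.055). Without ONG_9, 4 were higher and 2 lower, and with edgeR and limma-voom 3 were higher and 3 lower. With library totals 4 were higher and 0 lower; CREB3 was not called (adjusted p = 0.58) and CREB3L2 was higher, and ATF6B was not called by DESeq2 (adjusted p = 0.058) or with TMM scaling (0.076).

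Among the chaperones and cofactors 2 of 11 genes rose, 6 fell and 3 were not called, with a median of -0.32. With library totals 4 rose and 4 fell, with a median of -0.11. With the deposited size factors 18.9% of expressed coding genes were higher and 47.2% lower, with a median of -0.20. HSPA5, which encodes BiP, the HSP70 chaperone of the ER that also holds the sensors inactive (ENSG00000044574, chr9:125234853-125241330, minus strand), had 5689 and 5354 normalized counts without glucose. In Ctrl it had 3318 and 3166. Both No glucose libraries were well above both Ctrl libraries, 1.70-fold on average, and the log2 change was 0.77 ± 0.06 (adjusted p = 1.7e-06). HSP90B1 (GRP94), the ER form of HSP90 and the other classic glucose-regulated protein, had 15982 and 14929 in No glucose cells and 14891 and 15054 in Ctrl cells. Its groups overlapped, and the change of 0.05 ± 0.05 was not called (adjusted p = 0.55); with library totals it was 0.26 and called higher.

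The helpers of BiP took different courses. HYOU1 (GRP170), a large HSP70-like nucleotide exchange factor for BiP, fell to 5931 and 5872 without glucose, against 7614 and 7445 in Ctrl (-0.35 ± 0.05, adjusted p = 2.2e-04). SIL1, the other exchange factor, had 355 and 406 without glucose, against 334 and 358 in Ctrl (0.13 ± 0.10, adjusted p = 0.37); with library totals it was called higher, at 0.34 (adjusted p = 0.040). SDF2L1, a partner of ER DNAJ proteins that keeps BiP clients soluble (ENSG00000128228, chr22:21642261-21644298, plus strand), fell to 188 and 243 without glucose, against 444 and 423 in Ctrl. That is a log2 change of -1.02 ± 0.13 (adjusted p = 6.7e-05), opposite in sign to HSPA5. HSPA13, a microsome-associated HSP70 relative, had 6097 and 5402 in No glucose cells and 6092 and 6090.1 in Ctrl cells, with overlapping groups (-0.09 ± 0.06, adjusted p = 0.34).

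The lectin chaperones of the calnexin cycle, which hold glycoproteins through their trimmed sugar chains, both fell. CALR (calreticulin) had 29869 and 28513 normalized counts without glucose, against 37493 and 37479.9 in Ctrl (-0.36 ± 0.05, adjusted p = 8.3e-05). CANX (calnexin) had 13989 and 13059 without glucose, against 18821 and 18993 in Ctrl (-0.48 ± 0.05, adjusted p = 1.9e-05). Within each gene the libraries of a group lay close together and the groups were well apart. MANF, a secreted and ER-resident stress factor, fell to 1568 and 1399 without glucose, against 1794 and 1911 in Ctrl (-0.32 ± 0.07, adjusted p = 0.0054). The paralogs CRELD1 and CRELD2, of which CRELD2 is a secreted ER protein induced by stress, moved apart. CRELD1 rose to 328 and 339.6 without glucose, against 207 and 238 in Ctrl (0.58 ± 0.11, adjusted p = 0.0015), and CRELD2 fell to 412 and 421 without glucose, against 555 and 523 in Ctrl (-0.37 ± 0.09, adjusted p = 0.0060). Without CTRL_7, HYOU1, CALR, MANF, CRELD1 and CRELD2 missed the threshold (adjusted p 0.062 to 0.16), leaving 1 rise and 2 falls among chaperones. Without CTRL_8 MANF and CRELD2 missed it (0.065 to 0.16), and with library totals the same genes did (0.24 and 0.16).

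Of 11 disulfide isomerases and oxidases 2 rose, 7 fell and 2 were not called, with a median of -0.37. With library totals 3 rose and 5 fell, with a median of -0.16. With the deposited size factors 18.9% of expressed coding genes were higher and 47.2% lower, with a median of -0.20. No test was made of this role. The protein disulfide isomerases, which form and reshuffle disulfide bonds, gave most of the falls. PDIA5 (ENSG00000065485, chr3:123067062-123225227, plus strand) had 206 and 220.3 normalized counts without glucose, against 459 and 455 in Ctrl, the largest fall of the called genes at -1.10 ± 0.10 (adjusted p = 5.9e-06). PDIA6, which also acts on IRE1, had 3721 and 3635 without glucose, against 5421 and 5475 in Ctrl (-0.57 ± 0.05, adjusted p = 8.5e-06). PDIA4 had 4394 and 4503 without glucose, against 5886 and 5844 in Ctrl (-0.40 ± 0.05, adjusted p = 1.1e-04). In all of these the groups were clearly separate and the replicates close. P4HB, the founding isomerase, had 4981 and 5148 without glucose, against 6667 and 6437 in Ctrl (-0.37 ± 0.05, adjusted p = 2.1e-04). PDIA3, the isomerase that works with calnexin and calreticulin, averaged 6774 ± 457 in No glucose cells and 8259 ± 12.6 in Ctrl cells (SD, n = 2 each; -0.29 ± 0.06, adjusted p = 0.0022). ERP29, a thioredoxin-fold protein without the active cysteines, fell to 2638 and 2564 without glucose, against 3676 and 3579 in Ctrl (-0.48 ± 0.06, adjusted p = 5.1e-05).

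The oxidases and their retention factor differed among themselves. ERO1A, the oxidase that recharges P4HB, fell to 6614 and 6047 normalized counts without glucose, against 7715 and 7599 in Ctrl (-0.28 ± 0.06, adjusted p = 0.0028). ERO1B, its paralog, rose to 259 and 222 without glucose, against 131 and 120.4 in Ctrl (0.93 ± 0.13, adjusted p = 1.8e-04). ERP44, which retains both oxidases in the early secretory pathway, rose to 2535 and 2397 without glucose, against 2107 and 2076 in Ctrl (0.24 ± 0.06, adjusted p = 0.011). The paralogs thus moved in opposite directions, from unequal levels: per kb of exon, ERO1A stood at 839 normalized counts in No glucose and 1014 in Ctrl, and ERO1B at 44.9 in No glucose and 23.4 in Ctrl. TXNDC11, a redox partner of the EDEM proteins, had 823 and 824 without glucose, between the Ctrl values of 852 and 789 (0.01 ± 0.08, adjusted p = 0.96); with library totals it was called higher, at 0.22 (adjusted p = 0.041). TXNDC5, a further isomerase, was scarce, at 21.2 and 30.9 without glucose, against 50.5 and 38.8 in Ctrl (-0.77 ± 0.27, adjusted p = 0.051), and edgeR called it lower. Without CTRL_7, PDIA3, P4HB, ERP44 and ERO1A missed the threshold (adjusted p 0.059 to 0.18), leaving 1 rise and 4 falls. Without CTRL_8 PDIA3, ERP44 and ERO1A missed it (0.10 to 0.23), and with library totals PDIA3 and ERO1A did (0.22 and 0.28).

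Among ERAD genes 3 of 13 rose, 4 fell and 6 were not called. Of expressed coding genes 18.9% were higher and 47.2% lower. The median of the ERAD genes was -0.06 (0.15 with library totals, so its sign turned). The largest change was in EDEM1, which draws misfolded glycoproteins out of the calnexin cycle by mannose trimming (ENSG00000134109, chr3:5187646-5219957, plus strand). It had 11423 and 10876 normalized counts without glucose, against 5941 and 5914 in Ctrl. The groups were far apart, with 1.88-fold more in No glucose cells and a log2 change of 0.91 ± 0.05 (adjusted p = 2.1e-07). Its paralogs went the other way. EDEM2, which makes the first mannose cut, fell to 802 and 818 without glucose, against 1128 and 1136 in Ctrl (-0.48 ± 0.07, adjusted p = 2.4e-04). EDEM3 fell to 5807 and 5369.8 without glucose, against 8499 and 8153 in Ctrl (-0.58 ± 0.06, adjusted p = 1.2e-05). Per kb of exon, EDEM1 stood at 1649.8 normalized counts in No glucose and 877 in Ctrl, and EDEM3 at 716 in No glucose and 1067 in Ctrl, so their order of level was opposite in the groups.

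In the HRD1 ubiquitin ligase complex calls went both ways. SEL1L, its scaffold, rose to 5792 and 5284 normalized counts without glucose, against 4464 and 4434 in Ctrl (0.31 ± 0.06, adjusted p = 0.0015). OS9, the lectin that hands glycoproteins to it, rose to 3586 and 3584 without glucose, against 2957 and 2941 in Ctrl (0.28 ± 0.06, adjusted p = 0.0020). SYVN1, HRD1 itself, had 512 and 612 without glucose, against 473 and 449 in Ctrl, apart but not called (0.28 ± 0.10, adjusted p = 0.052). HERPUD1, a stress-induced adaptor of the same complex, fell to 1266 and 1211 without glucose, against 1624 and 1578 in Ctrl (-0.37 ± 0.07, adjusted p = 0.0010). So its scaffold and lectin were higher and its adaptor was lower. Of the ERAD ubiquitin-conjugating enzymes, UBE2J2 fell to 940.1 and 1051 without glucose, against 1469 and 1395 in Ctrl (-0.53 ± 0.08, adjusted p = 2.4e-04). UBE2J1 had 5818 and 5316 without glucose, overlapping the Ctrl values of 5784 and 5778 (-0.06 ± 0.06, adjusted p = 0.51).

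The derlins, which form part of the channel out of the ER, and SELENOS, which ties VCP to them, were not called. DERL1 had 2547 and 2441 normalized counts without glucose and 2754 and 2694 in Ctrl (-0.13 ± 0.06, adjusted p = 0.13). DERL2 had 1956 and 1849 without glucose and 1840.1 and 1885 in Ctrl, with overlapping groups (0.03 ± 0.06, adjusted p = 0.76). SELENOS had 832 and 836 without glucose and 860.4 and 861 in Ctrl (-0.05 ± 0.07, adjusted p = 0.68). DERL3, the stress-induced derlin of secretory cells, was scarce, with 3 and 2 reads in the No glucose libraries and 12 and 6 in the Ctrl libraries, and its groups overlapped (-0.57 ± 0.57, adjusted p = 0.49); the wide error goes with these few reads. Leaving out CTRL_7 ended the calls of HERPUD1, SEL1L and OS9 (adjusted p 0.079 to 0.11), which left 1 rise, EDEM1. Leaving out CTRL_8 ended those of SEL1L and OS9 (0.078 to 0.11), with the same result. Library totals ended that of HERPUD1 (0.054) and gave 6 rises and 3 falls, with SYVN1, DERL2 and UBE2J1 called higher, the last at 0.15 and so reversed.

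In the translocon 2 of 5 genes rose, 2 fell and 1 was not called. Of expressed coding genes 18.9% were higher and 47.2% lower. The median of the translocon genes was -0.12 (0.09 with library totals, so its sign turned). SEC61B and SEC61G, the small subunits of the channel, both fell. SEC61B had 1339 and 1636 normalized counts without glucose, against 2332 and 2247 in Ctrl (-0.63 ± 0.09, adjusted p = 1.7e-04), and SEC61G had 1936 and 1861 without glucose, against 2365 and 2389 in Ctrl (-0.32 ± 0.06, adjusted p = 0.0014). SEC61A1, the pore-forming subunit, had 4405 and 4698 without glucose, against 5060.3 and 4859.6 in Ctrl (-0.12 ± 0.06, adjusted p = 0.12). SEC62 and SEC63, partners of the channel for posttranslational import, both rose. SEC62, also an ER-phagy receptor, had 5894 and 5214 without glucose, against 4758 and 4528 in Ctrl (0.26 ± 0.07, adjusted p = 0.011), and SEC63, which also brings in BiP, had 2902 and 2833 without glucose, against 2264 and 2377 in Ctrl (0.31 ± 0.06, adjusted p = 0.0019). Without CTRL_7 and without CTRL_8 in turn SEC61G, SEC62 and SEC63 missed the threshold (adjusted p 0.081 to 0.14 and 0.051 to 0.25), which left 0 rises and 1 fall. With library totals SEC61G missed it (0.11), and SEC61A1 was at 0.09, not called.

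Levels are compared between genes per kb of exon. CALR stood highest, at 10756 normalized counts per kb in No glucose and 13812 in Ctrl, followed by HSP90B1 at 3292 in No glucose and 3189 in Ctrl and CANX at 2169 in No glucose and 3032 in Ctrl. EDEM1 stood at 1649.8 in No glucose and 877 in Ctrl, and HSPA5 at 1413 in No glucose and 829.6 in Ctrl. ERN1 reached 176 per kb without glucose and 46.0 in Ctrl. DERL3, at 0.969 in No glucose and 1.60 in Ctrl, and TXNDC5, at 5.94 in No glucose and 10.2 in Ctrl, were the lowest. The largest log2 changes were therefore found both in abundant genes (EDEM1, HSPA5) and in scarcer ones (ERN1, PDIA5, ERO1B).

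**Figure D3:**
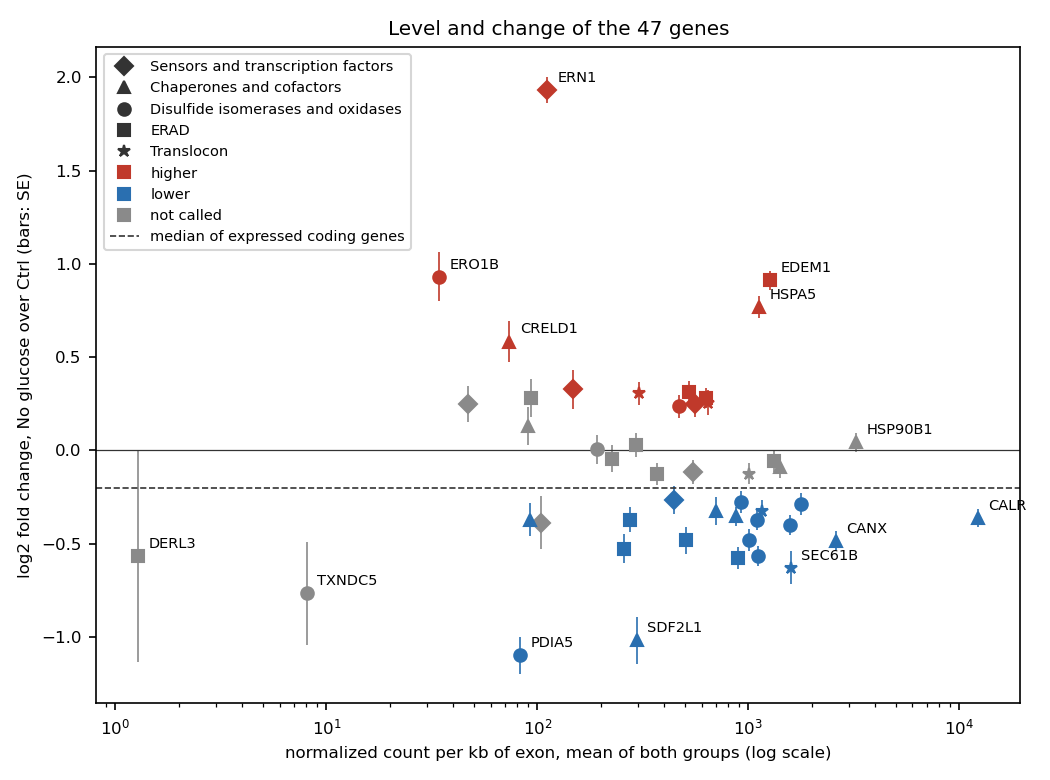
Log2 fold change, No glucose over Ctrl, with its SE (bars) against the mean normalized count per kb of exon over both groups (log scale) for the 47 genes; shape gives the role, colour the call, and the dashed line the median of expressed coding genes, -0.20. CALR lies far to the right at -0.36, EDEM1 and HSPA5 stand above the other abundant genes at 0.91 and 0.77, and the widest bars belong to DERL3 and TXNDC5, the scarcest genes.

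Transcript length moved with the change across the table, and so touches these genes. When 10656 expressed coding genes were cut into 5 classes of near-equal size by their longest annotated transcript, the median log2 change was -0.42 in the class of shortest transcripts, then -0.28, -0.20 and -0.13, and -0.03 in that of the longest. The 45 of the 47 genes with a mean of at least 50 followed the same order in part, with medians of -0.34 (10 genes), -0.37 (12), -0.09 (9), 0.05 (6) and 0.28 (8). Set against the median of its own length class, 27 of the 45 lay above it, made up of 5 of 7 sensors, 7 of 11 chaperones, 3 of 10 disulfide isomerases, 8 of 12 ERAD genes and 4 of 5 translocon genes. ERN1, with a longest transcript of 7876 bases, lies in the longest class, and SDF2L1 and SEC61B in the shortest. EDEM3 is in the longest class as well, whose median was -0.03, and fell by 0.58. The part of length in these results was not tested.

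**Figure D4:**
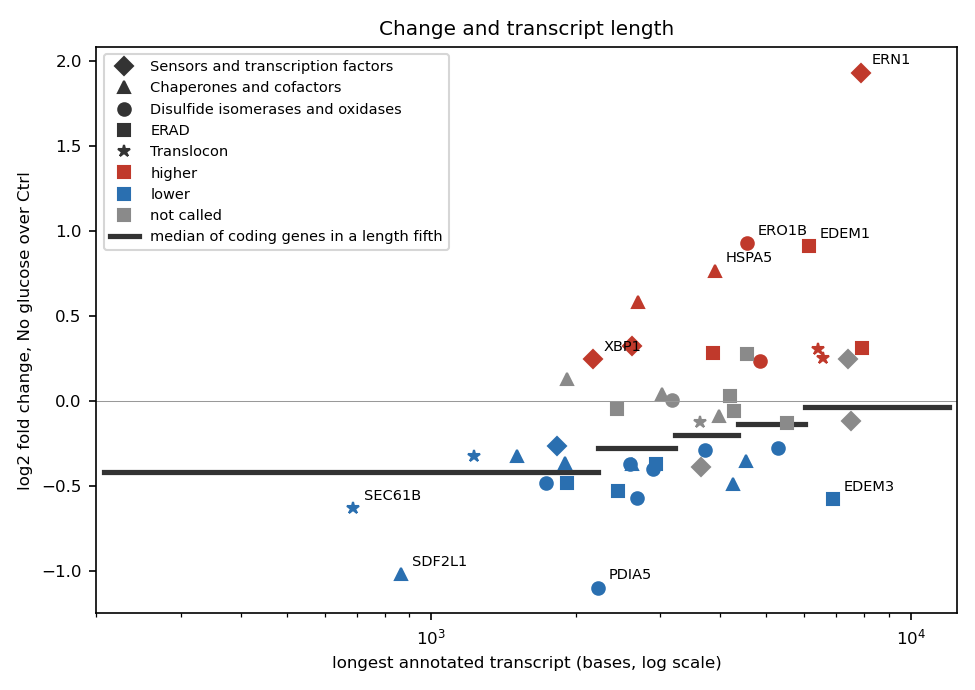
Log2 fold change, No glucose over Ctrl, against the longest annotated transcript in bases (log scale) for the 45 genes that averaged 50 or more normalized counts; horizontal bars are the medians of expressed coding genes in each of 5 classes of length. The bars climb from -0.42 to -0.03 with length, and ERN1, ERO1B, EDEM1 and HSPA5 lie far above their bars while PDIA5, SDF2L1 and EDEM3 lie far below.

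The rest of the pathway was read through 9 further lists, in which 102 of 103 genes outside the 47 were tested; 14 rose (13.7%), 57 fell (55.9%) and 31 were not called, with a median of -0.24. Among expressed coding genes 18.9% were higher and 47.2% lower, with a median of -0.20. In the PERK arm, which slows translation through eIF2 alpha and raises ATF4, 4 of 9 genes rose and 3 fell. PPP1R15A (GADD34), the phosphatase subunit that ends the translation block, had 3057 and 3206 normalized counts without glucose, against 665 and 630.0 in Ctrl, and rose by 2.27 ± 0.07 (adjusted p = 6.2e-09). DDIT3 (CHOP), a stress-induced transcription factor, had 802 and 791 without glucose, against 339.7 and 297 in Ctrl (1.32 ± 0.09, adjusted p = 9.5e-07). ATF4 mRNA fell to 6958 and 6689 without glucose, against 11930 and 11796 in Ctrl (-0.80 ± 0.05, adjusted p = 4.5e-07), and EIF2S1, which encodes eIF2 alpha, fell by the same 0.80. PPP1R15A and DDIT3 were thus higher while ATF4 mRNA was lower. EIF2AK3, PERK itself, had 1496 and 1499.9 without glucose, against 1223 and 1182 in Ctrl (0.32, adjusted p = 0.0029).

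Of the genes that process ATF6 and serve IRE1, 4 of 8 fell and 0 rose; TRAF2, the adaptor of IRE1 kinase signalling, fell by 0.90, and RTCB, the ligase that joins spliced XBP1 mRNA, fell by 0.57. Of 6 ER DNAJ cochaperones 3 rose and 1 fell. DNAJB9 (ERdj4), which brings BiP to IRE1, had 1449.5 and 1465 without glucose, against 776 and 821 in Ctrl (0.87 ± 0.07, adjusted p = 2.8e-06), and DNAJC10, a disulfide reductase, fell by 0.45. In glycosylation and the calnexin cycle 12 of 15 were lower and 0 higher. RPN2, a subunit of oligosaccharyltransferase, had 10809 and 10254 without glucose, against 18786 and 18277 in Ctrl (-0.82 ± 0.05, adjusted p = 3.8e-07), and STT3A, its catalytic subunit, fell by 0.77.

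Of 19 genes of targeting and signal peptide cleavage 11 fell, led by SRP9 of the signal recognition particle (-0.65) and the signal peptidase subunit SPCS1 (-0.50), and 1 rose, SEC61A2 (0.33), a paralog of the pore. Of 18 genes of ERAD extraction and other ligases 11 fell and 2 rose. BCAP31, an ER sorting factor, fell by 0.89, and VCP, the ATPase that pulls substrates out of the membrane, fell to 9523 and 8862 without glucose, against 16637 and 16170.4 in Ctrl (-0.84 ± 0.05). The ligase MARCHF6 rose by 0.52 and the lectin ERLEC1 by 0.21. In ER calcium 8 of 11 fell and 2 rose; the release channel ITPR3 fell by 0.95 and the calcium-binding CALU by 0.86, while the store sensor STIM1 rose by 0.46 and ITPR1 by 0.38. In ER-phagy 2 of 7 rose (CALCOCO1 by 0.83, and SEC62) and 2 fell (ATL3 fell by 0.60 and TEX264 fell by 0.49). In COPII export 5 of 12 fell, with PREB at -0.80 and SEC13 at -0.58, and 2 rose, SEC24B at 0.39 and SEC31A at 0.19.

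These counts too moved when either Ctrl library was left out, and with the scaling. Without CTRL_7, 8 of the 102 rose and 34 fell, and without CTRL_8, 9 rose and 42 fell. The falls without CTRL_7 numbered 7 in glycosylation, 4 in targeting, 7 in ERAD extraction, 4 in ER calcium and 2 in ATF6 and IRE1 processing, and the rises numbered 1 in ER DNAJ and 0 in COPII export. Without CTRL_8 the falls numbered 6 in targeting and 7 in ERAD extraction, and 1 ER DNAJ gene rose. DNAJC1, SEC61A2, ERLEC1 and SEC31A missed the threshold without either Ctrl library (adjusted p 0.062 to 0.36), and SEC24B did without CTRL_7 (0.053). SEC61A2 also missed it with DESeq2 (0.058), which left 0 rises in targeting. In the PERK arm 3 rose and 3 fell without either Ctrl library, and 1 ER DNAJ gene fell. With library totals 34 of the 102 rose and 39 fell. Targeting then had 7 rises and 5 falls, ERAD extraction 5 and 7, ER calcium 2 and 4, COPII export 5 and 4, and ATF6 and IRE1 processing 3 and 4.

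**Figure D5:**
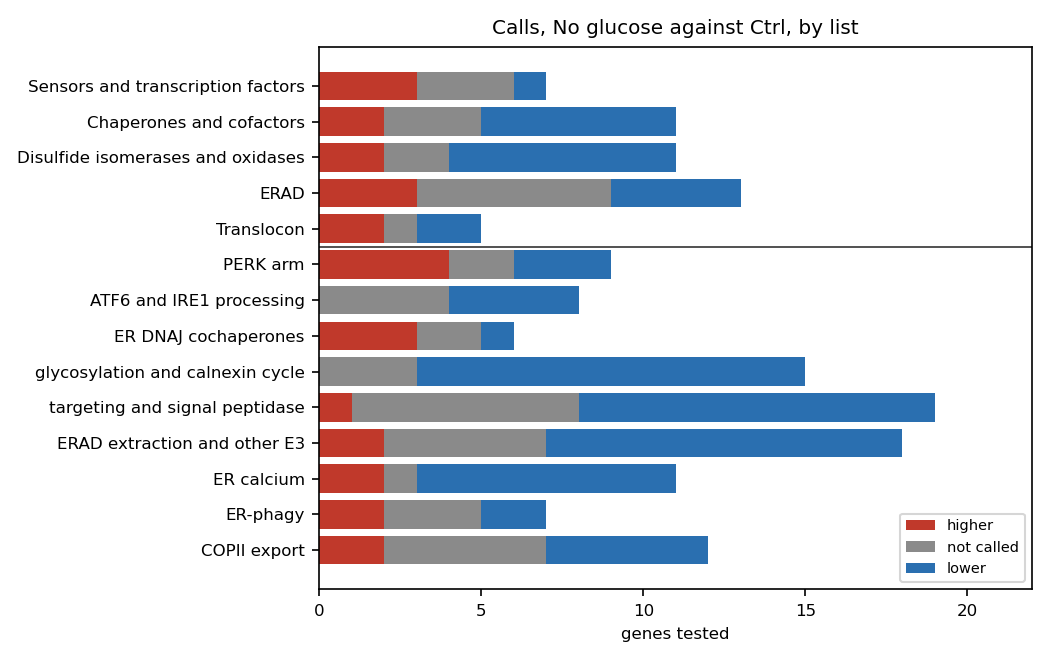
Number of genes tested that were higher, not called or lower without glucose against Ctrl, for the 5 roles of the 47 genes (above the line) and 9 further lists of the pathway (below it), with the deposited size factors. Glycosylation and the calnexin cycle has 12 of 15 lower and 0 higher, and the PERK arm has 4 of 9 higher and 3 lower, though 3 and 3 without either Ctrl library; with library totals targeting turns to 7 higher and 5 lower.

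In the authors' deposited table, at an adjusted p under 0.05, 11 of the 47 genes were higher and 19 lower, and 1 had no adjusted p. All of these 30 calls were made here in the same direction. ATF6B and CREB3 were called here and not in the authors' deposited table.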

How the data were processed

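Total RNA from CCRF-CEM/HA-AMPKa2 cells was sequenced in 2 No glucose and 2 Ctrl libraries. Per the submitters' processing notes, STAR 2.6.0c, RSEM 1.3.0 and DESeq2 1.18.1 were used with hg38; the annotation and counting strand are not given in the sources used here. The signal values deposited by the authors are normalized counts, 1 per gene and library, divided by a size factor per library. The deposited log2 values are the authors' fold changes and their standard errors. The deposited score is the authors' test statistic, and the deposited p-values and adjusted p-values belong to the same comparison. These were used only to count the authors' calls. The table has CTRL and ONG columns and no others, so ONG was read as No glucose. Column numbers could not be tied to replicate numbers in the labels.

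Dividing by each library's smallest step gave whole reads (within 0.01) for 100% of values above 0. The table held 60868 entries for 60609 gene identifiers; 26411 had a deposited symbol, and GENCODE 29 gave coordinates and lengths. The 27486 genes whose normalized counts averaged 1 or more went into a limma 3.58.1 fit with trend (R 4.3.3) of log2(normalized count + 1). Tests were two-sided, with Benjamini-Hochberg adjustment across these genes and a threshold of 0.05. Fold changes are on that scale and understate the change of low genes. The design named limma for normalized counts, and edgeR in its place if the values were raw counts. These counts are normalized, so limma was kept. As an alternative, edgeR on the recovered reads called 10256 genes. An exact permutation of 2 against 2 libraries cannot give a two-sided p below 0.333. The test was tried on simulated data first. Promoters are RefSeq windows (GRCh38.p14). Proteins were not searched.

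Alternatives were edgeR 4.0.16, DESeq2 1.42.0 and limma-voom on recovered reads, TMM and library-total scaling, pseudocounts of 0.5 and 5, no filter, a mean of at least 10, coding genes with a mean of at least 50, and each library left out in turn. All 47 genes are named, and of each further list up to 2 called genes in each direction with the largest change and a mean of at least 50; EIF2AK3, given as the kinase of its arm, was chosen after its values were seen. The genes and lists were chosen with earlier results of these data known.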

Additional observations from a re-analysis of the deposited data

How the results depend on the processing

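No paired analysis was possible because the table's columns carry no replicate number, so no replicate block was fitted. Genes called in the whole table numbered 9643, and 5345 to 10559 when 1 library was left out. Genes of the 47 called higher numbered 12, with 19 under library totals and 4 to 14 when 1 library was left out; those called lower numbered 20, with 13 under library totals and 10 to 24 when 1 library was left out. A group reduced to 1 library is assumed to vary like the other group. The median log2 change of the 47, -0.13, was -0.17 with edgeR, -0.18 with limma-voom, -0.17 with TMM, 0.083 with library totals, and -0.17 to -0.11 when 1 library was left out. No called gene of the 47 changed sign under any alternative run. Uncalled ones did: TXNDC11 and DERL2 were at -0.044 and -0.011 with edgeR, at -0.056 and -0.0031 with limma-voom and at -0.037 and -0.013 with TMM. Library totals put ATF6 at 0.096, HSPA13 at 0.12, DERL1 at 0.083, SELENOS at 0.17, UBE2J1 at 0.15 and SEC61A1 at 0.086. Leaving out 1 library at a time gave -0.048 to 0.061 for TXNDC11, lowest without CTRL_8. It gave -0.0041 to 0.094 for HSP90B1 and -0.010 to 0.071 for DERL2, lowest without ONG_9. It gave -0.17 to 0.0013 for HSPA13 and -0.12 to 0.0091 for UBE2J1, highest without ONG_10. edgeR also called ATF6, WFS1, TXNDC5, DERL1 and SEC61A1 lower. The cause of these differences was not tested. Genes called higher in the whole table, 3948, numbered 2436 with DESeq2 and 2126 among coding genes with a mean of at least 50, where fewer genes were tested. Sensors called lower, 1, numbered 3 with edgeR and limma-voom and 2 with a pseudocount of 5 or a mean of at least 10. ATF6 and IRE1 processing, with 0 higher, had 1 with edgeR and limma-voom. With 2 libraries per group, unequal depth and no stated separate cultures, small changes near the threshold are the least certain.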
